A study of Homo sapiens with 9 samples.

Results

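HEK293 cells carrying a hairpin against AMOT were compared with wild-type HEK293 cells, 3 bead arrays against 3, which are 6 of the 9 arrays of the series. The comparison covered every probe whose detection p, the chance of such a signal among control beads that match no transcript, was under 0.05 on at least 3 of these 6 arrays. That rule kept 20851 of the 47231 probes on the array. Of these, 14952 carried 1 gene symbol and covered 11279 genes, the brightest tested probe over the 6 arrays standing for each, and 5899 (28.3%) were unnamed and counted only as probes.

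HEK293 is a cell line from human embryonic kidney with both epithelial and neuronal features. The wild-type group carried no hairpin, and the AMOT hairpin group was HEK293 with an shRNA against AMOT. A further group of 3 arrays from HEK293 with an shRNA against YAP was used to test where a difference belonged to 1 hairpin. Those arrays were also normalized and fitted together with the 6 compared, so they enter each level and the spread behind each p-value. Sample titles call the hairpin groups knockouts while the sources name hairpins and the design text speaks of knockdown. The design counts 3 separate experiments for each group. Every group is HEK293, and the sources used here do not give the hairpin sequence, vector, selection, culture time or number of clones. Because the wild-type cells carried no vector, the effect of lowering AMOT cannot be told apart from that of the hairpin, its vector or the particular line.

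AMOT encodes angiomotin, a scaffold protein of tight junctions and of the actin cortex. Angiomotins bind the transcriptional coactivator YAP and hold it at junctions or on actin, and the Hippo kinases LATS1 and LATS2 phosphorylate both partners. YAP that reaches the nucleus works through TEAD factors, which bind DNA and switch on genes such as CCN1, CCN2 and ANKRD1. In kidney cells angiomotin has been described both as a restraint on YAP and as a partner that carries it into the nucleus, and the comparison addresses which way YAP target genes move when AMOT is lowered.

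The 6 arrays fell into their labelled groups. The first principal component held 69.2% of the variance and placed the wild-type arrays on one side and the AMOT hairpin arrays on the other. Correlations between arrays were 0.9881 to 0.9931 within groups and 0.9644 to 0.9705 between them. Between 19831 and 20397 probes were detected on the wild-type arrays and between 20827 and 22187 on the AMOT hairpin arrays, so that every AMOT hairpin array lay above every wild-type array, and AMOT hairpin array 3 was the highest. Of 10 markers of HEK293, 7 passed the filter, among them VIM, CDH2 and the neurofilament genes NEFL and NEFM. Of marker lists for other cells, 0 of 10 endothelial genes, 2 of 10 blood cell, 2 of 10 fibroblast and 2 of 10 hepatocyte genes passed.

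AMOT transcript was lower in the hairpin cells by a wide margin. Levels, here and throughout the log2 of background-corrected and quantile-normalized intensity, were 14.33, 14.32 and 14.21 in wild type and 9.94, 10.05 and 10.21 in the AMOT hairpin cells. The groups did not overlap, and AMOT hairpin levels were still well above the limit of detection of about 6 on this scale. The log2 change was -4.22, an 18.7-fold lower mean (SE 0.10, n = 3 per group, adjusted p = 2.5e-08 by limma with Benjamini-Hochberg adjustment over all tested probes). AMOT lies on chromosome X at 112774877 to 112840831 (GRCh38.p14). Its relative AMOTL2 had levels of 7.16, 7.13 and 7.53 in wild type and 7.68, 7.61 and 6.99 in the AMOT hairpin cells, which overlapped (log2 change 0.15, SE 0.19, adjusted p = 0.55). AMOTL1, the remaining angiomotin, was not among the named probes that passed the filter.

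**Figure D1:**
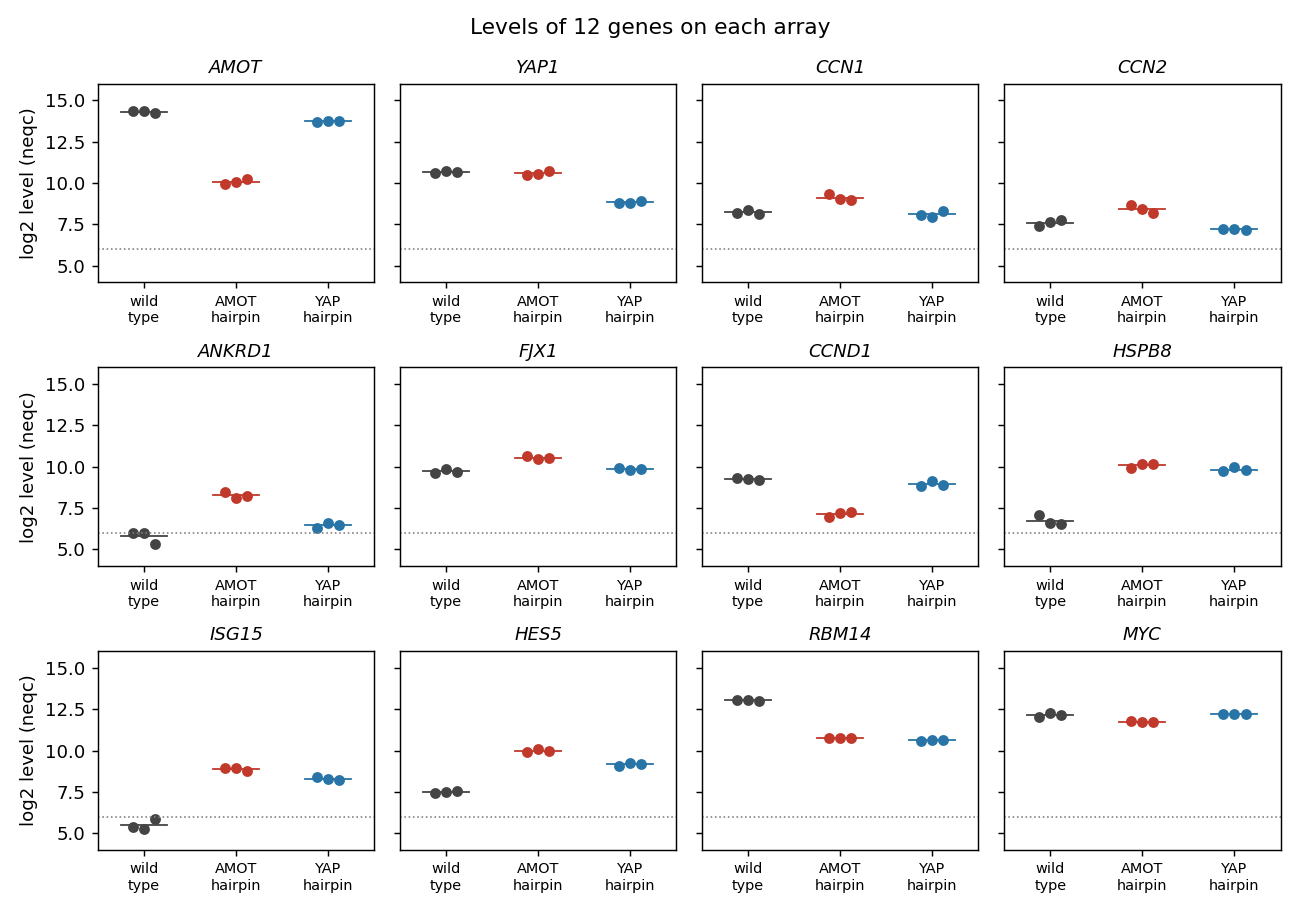
Log2 level of 12 genes on each array (points) with the group mean (bar), for wild type, AMOT hairpin and YAP hairpin, 3 arrays each; the dotted line is the highest limit of detection of the 9 arrays. AMOT falls from above 14 to about 10 in the AMOT hairpin cells, YAP1 overlaps wild type there, and CCN1, CCN2, ANKRD1 and FJX1 lie above wild type.

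Among transcripts of the Hippo kinase cascade, its cofactors and the TEAD factors most were not called. Of 22 measured members 2 rose, 5 fell and 15 were not called, against 22.6% of all tested genes called higher and 20% called lower. YAP1 itself had levels of 10.62, 10.71 and 10.64 in wild type and 10.47, 10.52 and 10.74 in the AMOT hairpin cells (log2 change -0.08, adjusted p = 0.55), so the ranges overlapped. MOB1A and MOB1B, cofactors that activate the LATS kinases, fell by 0.80 and 0.66 on the log2 scale, and another probe of MOB1A stood at -0.40 and was not called (limma adjusted p = 0.0943). TEAD2, one of the TEAD factors, went from 11.60, 11.54 and 11.56 to 10.998, 11.09 and 10.87, without overlap (log2 change -0.58, SE 0.09, adjusted p = 9.2e-04). The upstream kinase TAOK3 rose by 0.70 and SLMAP, a subunit of the phosphatase complex that opposes the Hippo kinases, by 0.37. LATS1 stood at -0.70 near the limit of detection, detected on 1 of 3 AMOT hairpin arrays. LATS1 lies on a stretch of chromosome 6 described below, and without the genes of the stretches 2 of 20 members rose and 4 fell. The count of falling members was 3 without wild-type array 3 or AMOT hairpin array 2 and 2 without AMOT hairpin array 1. The count of rising members was 1 without wild-type array 2 or 3 or AMOT hairpin array 3. The MOB1B call was lost without AMOT hairpin array 1 (adjusted p = 0.059), and that of LATS1 without wild-type array 3 or AMOT hairpin array 1 or 2 (adjusted p = 0.056 to 0.064).

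Known transcriptional targets of YAP and TEAD moved upward where they moved at all. Of 15 measured targets 7 rose, 0 fell and 8 were not called. Their median log2 change was 0.15, against 0.01 over all tested genes. For CCN2 and ANKRD1 the RefSeq promoter, from 250 bases before to 50 after the start of the gene, is printed 5′ to 3′ on the gene's strand, with each GGAATG, the reverse complement of the TEAD core CATTCC, in capitals. The CCN2 window is chr6:131951323-131951622 and the ANKRD1 window chr10:90921038-90921337 (GRCh38.p14, both on the minus strand).
CCN2: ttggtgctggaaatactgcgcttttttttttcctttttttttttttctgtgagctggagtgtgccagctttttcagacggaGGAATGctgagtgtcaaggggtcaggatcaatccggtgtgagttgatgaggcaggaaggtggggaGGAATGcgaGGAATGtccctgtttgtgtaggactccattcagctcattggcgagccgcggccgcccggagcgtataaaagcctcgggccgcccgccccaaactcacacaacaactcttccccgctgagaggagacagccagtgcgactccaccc
ANKRD1: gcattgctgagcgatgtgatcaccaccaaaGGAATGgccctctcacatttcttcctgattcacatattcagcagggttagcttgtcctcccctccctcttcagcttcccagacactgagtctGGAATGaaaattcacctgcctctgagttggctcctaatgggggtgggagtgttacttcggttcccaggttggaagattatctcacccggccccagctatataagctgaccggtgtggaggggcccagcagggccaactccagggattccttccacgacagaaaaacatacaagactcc

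The CCN2 window held 3 copies of the motif and the ANKRD1 window 2, while those of FJX1 and AJUBA, targets that also rose, held 0. The motif in either orientation stood in 14% of 27305 promoters of this length and in 10.5% of the 9108 tested genes with a promoter entry. Among genes called higher it stood in 10.7% and among genes called lower in 9.7%. A match describes the sequence and does not show that a factor was bound.

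CCN2, a matricellular protein, had levels of 7.42, 7.62 and 7.73 in wild type and 8.65, 8.44 and 8.20 in the AMOT hairpin cells. These ranges did not overlap (log2 change 0.84, SE 0.13, limma adjusted p = 8.9e-04), although its other probe stood at 0.44 and was not called (adjusted p = 0.068). CCN1, the related matricellular protein CYR61, went from 8.18, 8.34 and 8.11 to 9.30, 9.05 and 8.95 (log2 change 0.89, SE 0.13, adjusted p = 6.8e-04). ANKRD1, a repeat protein of the nucleus and the sarcomere, was at 5.999, 6.002 and 5.35 in wild type, at the edge of detection, and at 8.47, 8.13 and 8.24 in the AMOT hairpin cells. The fitted log2 change of ANKRD1 was 2.5 (SE 0.18, adjusted p = 1.2e-05), and its size depends on a wild-type level that was detected on 2 of 3 arrays. FJX1, a secreted kinase homologue of the fly Hippo regulator four-jointed, went from 9.62, 9.88 and 9.66 to 10.63, 10.46 and 10.51 (0.81, SE 0.10, adjusted p = 2.7e-04). The remaining rising targets were DLC1 at 1.02, the stress sensor GADD45A at 0.54 and the LIM protein AJUBA at 0.45. DLC1 was detected on 1 of 3 wild-type arrays, so its size too depends on a level near the limit of detection. AMOTL2, CRIM1, F3, FOXF2, GADD45B, PTPN14, ASAP1 and LATS2 were not called, with changes between -0.50 and 0.15. Without wild-type array 1 there was 1 falling target.

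The same targets were tested between the hairpins. AMOT hairpin cells exceeded YAP hairpin cells in CCN2 by 1.23, CCN1 by 0.98, ANKRD1 by 1.83 and FJX1 by 0.66 on the log2 scale (limma adjusted p = 3.4e-04, 0.0011, 2.6e-04 and 0.0023). GADD45A was lower in the AMOT hairpin cells than in the YAP hairpin cells, by a log2 difference of -0.73 (adjusted p = 0.0031). Over all tested genes 11.2% were called higher and 12.2% lower in this contrast, and among the 15 targets 4 were higher and 1 lower.

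Over the whole array the comparison moved many transcripts by small amounts. Of 20851 probes 7921 (38%) passed the threshold of 0.05, 3935 higher (18.9%) and 3986 lower (19.1%). A change of at least 2-fold was reached by 940 higher probes (4.51%) and 475 lower probes (2.28%). Per gene, 2548 of 11279 were higher (22.6%) and 2254 lower (20%), with 616 (5.46%) and 250 (2.22%) past 2-fold. The 3 wild-type and 3 AMOT hairpin levels did not overlap in 6135 genes (54.4%). The median absolute log2 change of called genes was 0.59, and the median signed change of all tested genes was 0.01. Changes of at least 4-fold were seen for 80 higher and 16 lower genes, and of at least 8-fold for 8 and 3. Of the 2548 higher genes 609 were also higher than in the YAP hairpin cells, 250 were lower and 1689 were not called in that contrast. Of the 2254 lower genes 532 were also lower than in the YAP hairpin cells, 147 were higher and 1575 were not called.

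Direction went with the wild-type level. Of 1967 genes whose wild-type mean lay under 7, 33.4% were called higher and 6.3% lower, and of 662 genes at 13 or above, 8.6% were called higher and 26.7% lower. Genes between 8 and 11 were called in both directions at nearly equal rates. A gene undetected in wild type passed the filter only if it was detected in the AMOT hairpin cells, and more probes were detected on the AMOT hairpin arrays. The part of both in this pattern was not tested.

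**Figure D2:**
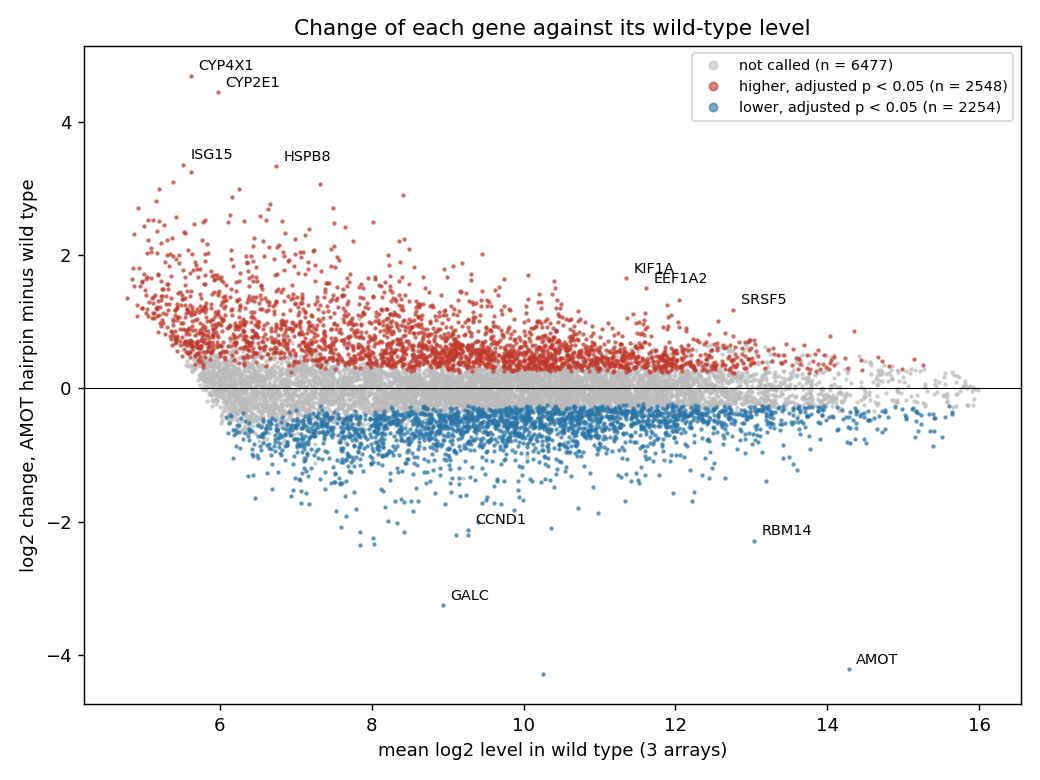
Each point is 1 of the 11279 tested genes, with its mean log2 level over the 3 wild-type arrays on the horizontal axis and its log2 change (AMOT hairpin minus wild type) on the vertical axis; red and blue points passed limma's adjusted p under 0.05. Large rises lie at low wild-type levels, while AMOT and RBM14 are the large falls at high levels.

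The 15 largest rises among genes detected on all 6 arrays ran from 3.34 to 2.34 on the log2 scale. HSPB8, a small heat shock protein that feeds misfolded proteins to chaperone-assisted autophagy, went from 7.08, 6.62 and 6.53 to 9.92, 10.16 and 10.17. This is a log2 change of 3.34 (SE 0.15, limma adjusted p = 1.2e-06) with no overlap. COL7A1, the collagen of anchoring fibrils, went from 6.36, 7.29 and 6.35 to 9.48, 9.63 and 9.22 (2.78, SE 0.25), wild-type array 2 being the highest of its group. INHBE, a subunit of activin E that is induced in stressed liver, went from 7.48, 7.59 and 7.40 to 10.04, 10.39 and 10.20 (2.72, SE 0.11). FOXN4, a forkhead factor of retinal and spinal progenitors, rose by 2.70 and PNCK, a calcium/calmodulin-dependent kinase, by 2.51. PNCK exceeded the YAP hairpin by 0.61 (limma adjusted p = 0.0021). HSPB8, COL7A1, INHBE and FOXN4 did not pass against the YAP hairpin, at log2 differences of 0.26, 0.38, 0.24 and -0.35.

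ANXA1, a calcium-dependent phospholipid-binding protein that restrains inflammation, had levels of 7.94, 7.99 and 8.10 in wild type and 10.47, 10.49 and 10.60 in the AMOT hairpin cells (2.505, SE 0.10, limma adjusted p = 7.7e-07). Every AMOT hairpin array was above every wild-type array for each of these genes. MMP23B, a membrane metalloproteinase, rose by 2.54, RALGPS1, an exchange factor for Ral GTPases, by 2.40 and the zinc finger gene ZNF83 by 2.34. KRTAP19-1 and KRTAP19-6, keratin-associated proteins of hair, rose by 2.91 and 2.43, and both were lower than in the YAP hairpin cells by a log2 difference of -1.44 and -1.54. CGB1, of the chorionic gonadotropin beta cluster, rose by 2.59, and the copies of that cluster are nearly identical, so its probe may read several of them. The antisense transcript HDHD5-AS1 rose by 3.07 on 1 probe and 0.89 on another, and C2orf48 by 2.52. ANXA1, MMP23B, ZNF83, CGB1 and the first probe of HDHD5-AS1 were higher than in the YAP hairpin cells. RALGPS1 and C2orf48 did not pass that test.

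**Figure D3:**
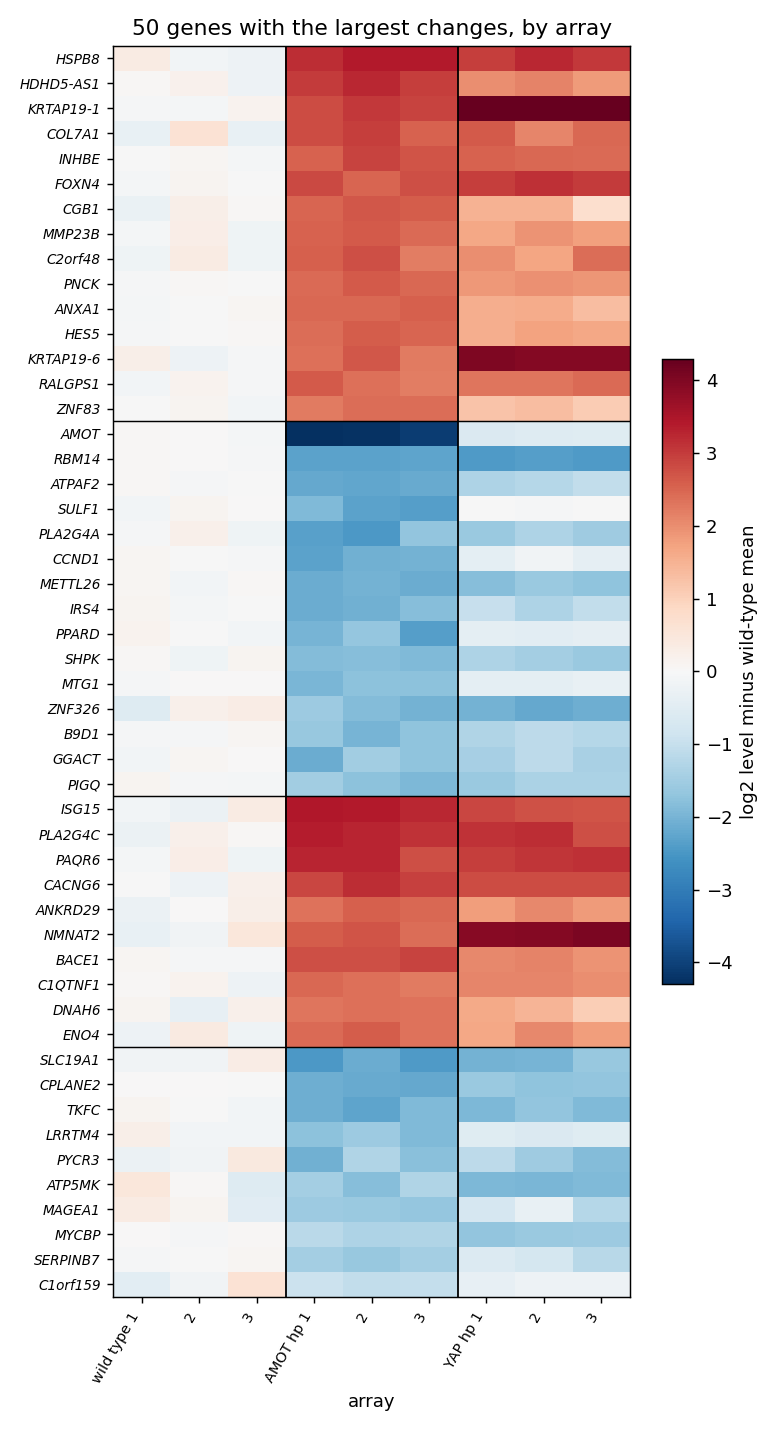
Log2 level minus the wild-type mean for 50 genes (rows) on the 9 arrays (columns, hp for hairpin), in 4 blocks from the top. First come 15 rising and 15 falling genes detected on all 6 compared arrays. Then come 10 genes detected on the 3 AMOT hairpin arrays and no wild-type array, and 10 for which the reverse held. Differences from the YAP hairpin arrays were not used to choose the blocks. Switched genes such as ISG15 and CPLANE2 were also detected on those arrays. The 3 arrays of a group share their colour in nearly every row, and AMOT, SULF1, CCND1, PPARD and MTG1 are clearly blue only in the AMOT hairpin columns.

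The largest fall among genes detected on all 6 arrays, after AMOT, was that of RBM14, and SULF1 and CCND1 were also among the 15 largest. RBM14, an RNA-binding coactivator of paraspeckles, went from 13.08, 13.04 and 12.999 to 10.75, 10.75 and 10.77 (log2 change -2.29, SE 0.08, limma adjusted p = 4.9e-07), and did not pass against the YAP hairpin (0.13, adjusted p = 0.29). SULF1, which trims heparan sulfate at the cell surface and so tunes growth factor and Wnt signalling, lies on chromosome 8 and went from 8.98, 9.22 and 9.11 to 7.21, 6.79 and 6.72 (-2.19, SE 0.13). CCND1, cyclin D1, the regulatory partner of CDK4 and CDK6, went from 9.34, 9.26 and 9.22 to 6.98, 7.22 and 7.24 (-2.12, SE 0.11, adjusted p = 2.3e-06). None of these ranges overlapped. SULF1 and CCND1 were also lower than in the YAP hairpin cells, by log2 differences of -2.16 and -1.81 (adjusted p = 2.2e-05 for each).

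Further genes among the 15 largest falls follow. PLA2G4A, the cytosolic phospholipase that releases arachidonic acid, went from 8.39, 8.64 and 8.25 to 6.10, 5.97 and 6.72 (log2 change -2.16, SE 0.19). IRS4, the insulin receptor substrate typical of HEK293, went from 8.45, 8.24 and 8.32 to 6.20, 6.27 and 6.49 (-2.02, SE 0.12). PPARD, a nuclear receptor for fatty acids, went from 9.53, 9.37 and 9.28 to 7.41, 7.75 and 7.03 (-2.00, SE 0.16). All 3 falls were without overlap, with limma adjusted p of 3.7e-05, 4.8e-06 and 2.3e-05, and all 3 were lower than in the YAP hairpin cells by log2 differences of -0.68, -0.89 and -1.57. MTG1, a GTPase of the mitochondrial ribosome, fell by 1.84 on the log2 scale and differed from the YAP hairpin by -1.46. ATPAF2, an assembly factor of the ATP synthase, B9D1 of the ciliary transition zone and SHPK, a sugar kinase, are genes of chromosome 17 and stood at -2.21, -1.79 and -1.87. METTL26, ZNF326, GGACT and PIGQ, an enzyme of GPI anchor synthesis, completed the list at -2.10, -1.83, -1.78 and -1.74.

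A change of at least 8-fold downward was reached by AMOT and 2 genes that were not detected on all 6 arrays, named here after their values were seen. TOM1L2, a protein of endosomal sorting, went from 10.21, 10.31 and 10.27 to 6.05, 5.70 and 6.16 (log2 change -4.29, SE 0.13). GALC, the lysosomal enzyme that degrades galactosylceramide in myelin, went from 8.85, 9.002 and 8.95 to 5.94, 5.49 and 5.59 (-3.26, SE 0.12). On the AMOT hairpin arrays TOM1L2 was detected on 2 of 3 and GALC on 1 of 3, so both ended near the limit of detection. GALC differed from the YAP hairpin cells by -3.48 (limma adjusted p = 6.9e-07), and its YAP hairpin levels of 9.09, 9.13 and 9.25 were above those of wild type.

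Some transcripts crossed the limit of detection. Detected on all 3 AMOT hairpin arrays and on 0 wild-type arrays were 474 probes, and the reverse held for 104. Without AMOT hairpin array 3, which had the most detected probes, these numbers were 592 and 227 over the whole array. At a detection p under 0.01 they were 510 and 86. For such genes only a lowest possible fold is given, computed against the limit of detection. The genes with the highest bounds among the switched-on ones were ISG15, an interferon-induced ubiquitin-like protein, and PLA2G4C, a calcium-independent phospholipase, both at least 7.64-fold higher.

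Among the switched-on genes PLA2G4C stood at 5.36, 5.85 and 5.66 in wild type, all undetected, and at 9.01, 8.89 and 8.74 in the AMOT hairpin cells. PAQR6, a membrane progestin receptor, was at least 5.80-fold higher and CACNG6, a subunit of calcium channels, at least 4.73-fold. Both were detected on all 3 AMOT hairpin arrays, as the choice of switched-on genes required. PLA2G4C, PAQR6 and CACNG6 did not pass against the YAP hairpin, at log2 differences of 0.24, 0.05 and 0.20. The axonal NAD-synthesising enzyme NMNAT2 was at least 4.12-fold higher and BACE1, the beta-secretase of amyloid precursor protein, at least 4.10-fold. BACE1 went from 5.24, 5.13 and 5.12 to 7.94, 7.94 and 8.07 and exceeded the YAP hairpin by 0.77, while NMNAT2 lay below the YAP hairpin by a log2 difference of -1.38 (limma adjusted p = 7.5e-04 and 0.0012). ANKRD29, C1QTNF1, the dynein heavy chain DNAH6 and the enolase relative ENO4 were at least 4.51-, 3.83-, 3.80- and 3.43-fold higher.

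The largest bounds among the switched-off genes were those of SLC19A1 and CPLANE2. SLC19A1, the reduced folate carrier, went from 7.69, 7.68 and 8.16 to 5.38, 5.71 and 5.40, at least 4.01-fold lower. CPLANE2, a GTPase needed for ciliogenesis, went from 7.85, 7.86 and 7.82 to 5.75, 5.67 and 5.64, at least 4.0-fold lower. TKFC, which phosphorylates dihydroxyacetone, was at least 3.36-fold lower and PYCR3, an enzyme of proline synthesis, at least 2.33-fold. In each of these genes the AMOT hairpin arrays were all undetected, as the choice of switched-off genes required. LRRTM4, a synaptic adhesion protein, was at least 2.51-fold lower, ATP5MK of the ATP synthase 2.17-fold, the tumour antigen MAGEA1 2.14-fold, the MYC-binding protein MYCBP 1.91-fold, SERPINB7 1.80-fold and C1orf159 1.78-fold.

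Abundant transcripts, those with a wild-type level of 11 or more, changed by less than the dim ones. KIF1A, a kinesin motor that carries synaptic vesicle precursors, went from 11.50, 11.23 and 11.33 to 12.99, 13.09 and 12.95 (log2 change 1.66, SE 0.10, limma adjusted p = 3.8e-06). EEF1A2, the form of elongation factor 1 alpha found in neurons and muscle, went from 11.66, 11.55 and 11.62 to 13.03, 13.26 and 13.07 (1.51, SE 0.10). Neither set of ranges overlapped. Also rising were TST, a mitochondrial sulfurtransferase, by 1.25, the splicing factor SRSF5 by 1.18, the purine salvage relative PRTFDC1 by 1.12, the secreted glycoprotein STC2 by 1.10 and STK36, a kinase of Hedgehog signalling and motile cilia, by 1.06. GOLGA8B, ZNF581 and KHDC4 rose by 1.33, 1.14 and 1.07. GOLGA8B belongs to a family of near-identical copies, so its probe may read several.

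Among abundant falling genes beside AMOT and RBM14 were DBNL, an actin-binding adaptor, and CYB5A, cytochrome b5. DBNL went from 12.28, 12.13 and 12.32 to 10.78, 10.60 and 10.68 (log2 change -1.55, SE 0.09) and CYB5A from 11.59, 11.49 and 11.45 to 10.09, 10.16 and 10.14 (-1.38, SE 0.09), without overlap. CYB5A was lower than in the YAP hairpin cells by -1.21 (limma adjusted p = 5.5e-05), and DBNL did not pass that test (0.10, adjusted p = 0.49). The prolidase PEPD, the membrane protein CLPTM1L and the phosphoribosyl pyrophosphate synthetase regulator PRPSAP2 stood at -1.42, -1.57 and -1.38. CHLSN, SLC33A2 and the GABA-B receptor auxiliary subunit KCTD12 stood at -1.69, -1.69 and -1.39.

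The gene lists that follow are read against the shares of all tested genes, 22.6% higher and 20% lower, with no test of a list. As given above, these shares differ with the wild-type level. They were 33.4% higher and 6.3% lower under a level of 7, and 8.6% and 26.7% at 13 or above. The lists were not matched for level, and the part of level in their counts was not tested.

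**Figure D4:**
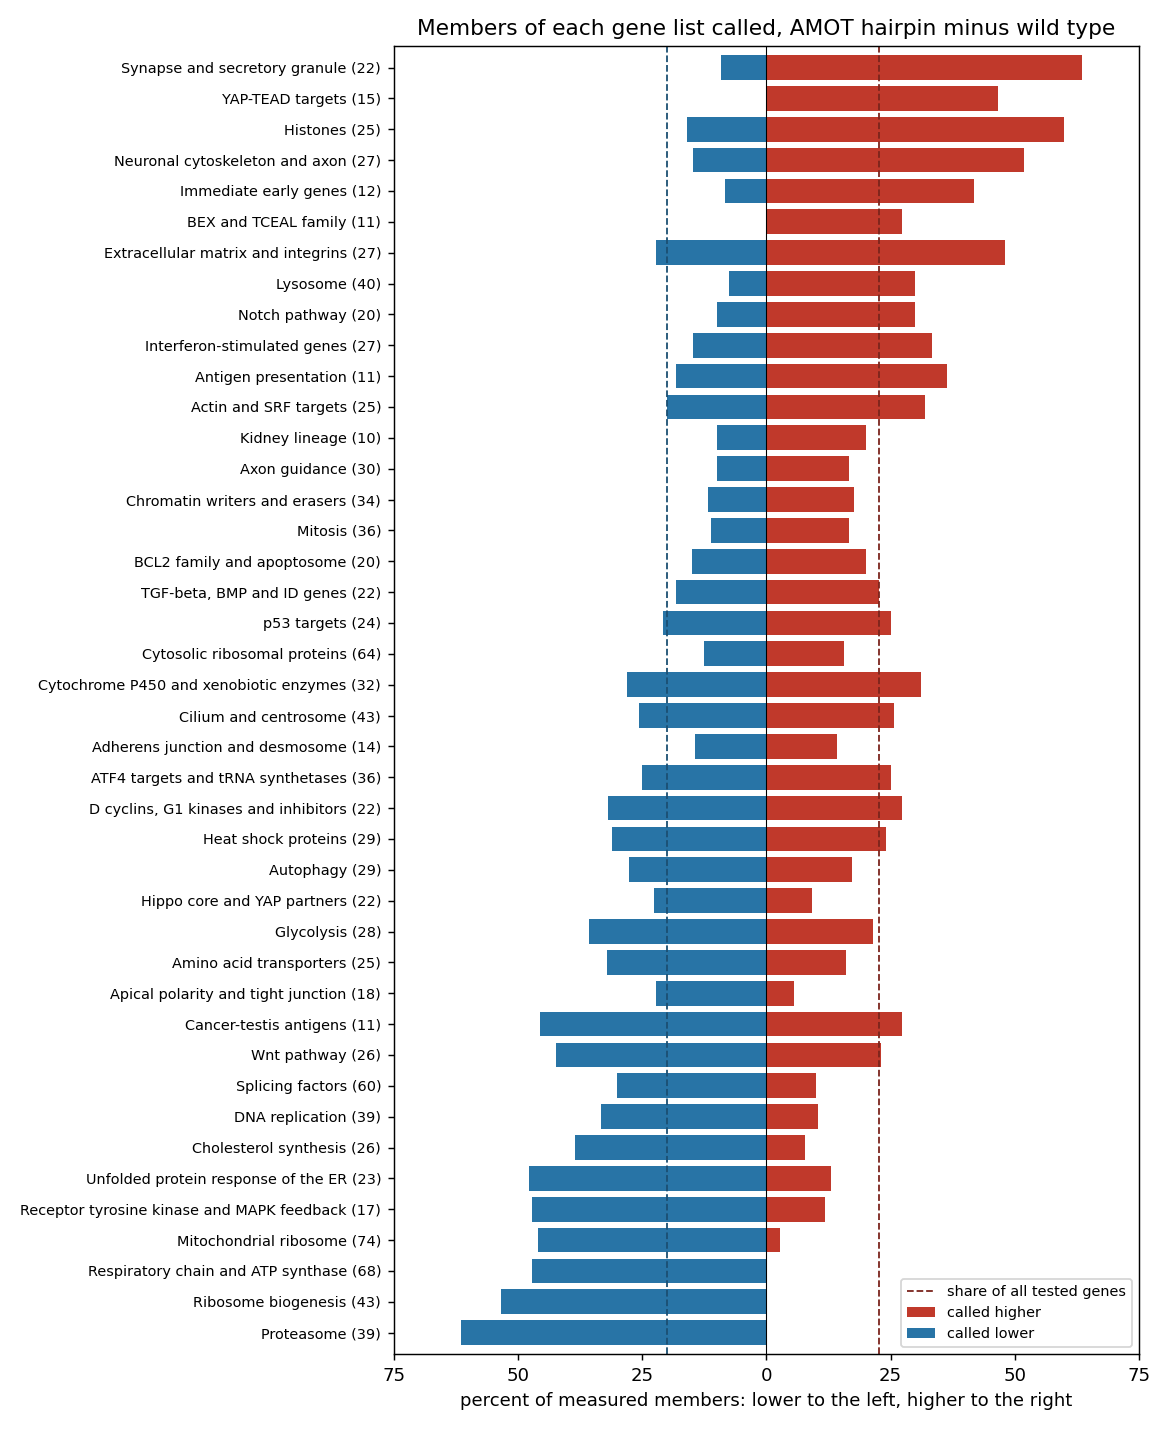
Percent of the measured members of each gene list described in the text with 10 or more measured members (number in brackets) called lower, to the left in blue, and higher, to the right in red; dashed lines mark the shares of all 11279 tested genes. Proteasome, ribosome biogenesis, respiratory chain and mitochondrial ribosome members are called almost only lower, and synapse, histone, neuronal cytoskeleton and YAP-TEAD members more often higher than lower.

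Genes of apical polarity and tight junctions, the site where angiomotin sits, were called less often than all genes. Of 18 measured members 1 rose and 4 fell. LLGL1, a basolateral polarity protein, went from 10.77, 9.89 and 10.15 to 9.31, 9.18 and 9.29 (log2 change -1.01, SE 0.19, limma adjusted p = 0.0025) without overlap. LIN7C, a scaffold of the Crumbs complex, fell by 0.62 on the log2 scale, and another of its probes stood at -0.27. PARD3, a core polarity scaffold, was undetected in wild type and at least 1.21-fold higher. LLGL1 and PARD3 lie on chromosome stretches described below, and without the genes of the stretches 0 of 16 members rose and 3 fell. Against the YAP hairpin cells 1 member was higher and 8 were lower. Among adherens junction and desmosome genes 2 of 14 rose and 2 fell. CDH1, E-cadherin, went from 7.33, 7.36 and 7.46 to 6.19, 6.01 and 7.13, with AMOT hairpin array 3 close to wild type (-0.94, SE 0.26, adjusted p = 0.018), and its call was lost without wild-type array 3 or AMOT hairpin array 1 or 2 (adjusted p = 0.052 to 0.066). VCL, the junction and focal adhesion protein vinculin, rose by 0.40 on 1 probe and stood at 0.18 on another (adjusted p = 0.449), and its call was lost with median scaling (adjusted p = 0.076). The counts of these small lists moved with single arrays, the 2 rising junction members being 1 without wild-type array 2 or 3, AMOT hairpin array 1 or 2 or YAP hairpin array 1. The 2 falling ones were 0 without wild-type array 3 or AMOT hairpin array 2 and 1 without AMOT hairpin array 1 or 3, and the 1 rising polarity member was 2 without wild-type array 1.

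Rising members were found among both epithelial and mesenchymal markers. Of 8 measured epithelial genes 5 rose and CDH1 alone fell, and of 7 mesenchymal genes 3 rose and 1 fell. EPCAM, an epithelial adhesion molecule, went from 7.80, 7.81 and 7.43 to 9.003, 9.03 and 8.96 (log2 change 1.32, SE 0.13, limma adjusted p = 7.2e-05), and its other probes stood at 1.36 and 1.09. CD44, the hyaluronan receptor, was undetected in wild type at 4.95, 4.83 and 4.82 and stood at 6.99, 7.14 and 7.43 in the AMOT hairpin cells, at least 2.36-fold higher. VIM, vimentin, went from 14.38, 14.31 and 14.35 to 15.28, 15.04 and 15.32 (0.87, SE 0.10). VIM lies on a stretch of chromosome 10 described below, and without the genes of the stretches 2 of 6 mesenchymal markers rose and 1 fell. EPCAM and VIM were without overlap. EPCAM, CD44 and VIM were above the YAP hairpin cells, by 1.03, 1.22 and 0.70. MUC1, CD24 and the protease inhibitor SPINT2 rose by 1.05, 1.00 and 0.55, and the keratin KRT8 by 0.68. CD24 and KRT8 were lower than in the YAP hairpin cells, by log2 differences of -0.51 and -0.60. In all, 1 epithelial member was higher and 2 lower than in the YAP hairpin cells, and 2 mesenchymal members were higher and 2 lower. The falling epithelial count was 0 without wild-type array 3 or AMOT hairpin array 1 or 2. The falling mesenchymal member, SNAI2 at -0.28 (adjusted p = 0.049), lost its call without any 1 of the 9 arrays.

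Matrix and integrin genes rose more often than the background, 13 of 27 higher and 6 lower, with a median log2 change of 0.26. LAMA1 and LAMA5, alpha chains of basement membrane laminins, rose by 1.25 and 0.94. LAMA1 went from 9.004, 8.72 and 8.67 to 10.08, 10.04 and 10.01 with no overlap (SE 0.11, limma adjusted p = 3.2e-05). TIMP2, an inhibitor of matrix proteases, rose by 0.82. COL18A1, the collagen from which endostatin is cut, went the other way, from 8.46, 8.44 and 8.36 to 6.88, 6.63 and 6.62 (log2 change -1.71, SE 0.12, adjusted p = 8.1e-06). COL5A2, a fibrillar collagen, stood at -1.24 against wild type and -2.05 against the YAP hairpin, detected on 1 of 3 AMOT hairpin arrays.

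Cytoskeletal genes split. Of 25 actin and SRF target genes 8 rose and 5 fell. Smooth muscle genes TAGLN, TPM2 and ACTA2 rose by 1.63, 0.92 and 0.64, and ACTA2 was lower than in the YAP hairpin cells by -1.12. The actin-binding profilin PFN1, one of the brightest genes, fell by 0.64 on the log2 scale. The 8 rising actin genes were 4 to 5 without any 1 of wild-type arrays 1 and 2 and the 3 AMOT hairpin arrays, and 5 with median scaling.

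Signalling lists held strong single changes in both directions. In the Wnt list 6 of 26 members rose and 11 fell, CCND1 among them. The secreted inhibitors DKK3 and SFRP1 rose by 1.84 and 1.49, and the feedback inhibitor NKD1 and the receptor FZD2 stood at -1.57 and -1.15. NKD1 was detected on 1 of 3 AMOT hairpin arrays. SFRP1 went from 6.48, 6.71 and 6.46 to 8.22, 7.96 and 7.95 and exceeded the YAP hairpin by 1.68 (limma adjusted p = 1.4e-04), with no overlap. The falling Wnt count was 7 without wild-type array 3.

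In the Notch list 6 of 20 members rose and 2 fell. HES5, a repressor that Notch induces in neural progenitors, went from 7.46, 7.49 and 7.56 to 9.89, 10.11 and 9.996 (log2 change 2.49, SE 0.09, limma adjusted p = 5.2e-07), above the YAP hairpin by 0.84. The ligand JAG2, the receptor NOTCH3 and the effector HES1 rose by 1.20, 0.85 and 0.66. NOTCH3 was lower than in the YAP hairpin cells by -0.57, so the members were not ordered alike between the hairpins. The 2 falling members were 1 without wild-type array 3 or AMOT hairpin array 1 or 3.

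Among 22 genes of the TGF-beta and BMP pathways 5 rose, INHBE the most, and 4 fell. ID1 and ID3, inhibitors of differentiation factors that BMP signals induce, stood at -1.31 and -0.95, ID1 being detected on 1 of 3 AMOT hairpin arrays. ID3 went from 10.72, 10.47 and 10.59 to 9.56, 9.59 and 9.78 without overlap (SE 0.10, limma adjusted p = 1.2e-04) and lay above the YAP hairpin by 0.92. The BMP receptors BMPR1B and BMPR2 rose by 0.89 and 0.75. The 4 falling members were 2 without wild-type array 1 or AMOT hairpin array 1.

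Receptor tyrosine kinases and their feedback inhibitors fell more often than the background, 8 of 17 lower and 2 higher. The Sprouty and SPRED proteins, which dampen the RAS pathway, were among the falling members, SPRY1 at -0.55, SPRY2 at -0.64, SPRED1 at -0.65 and SPRED2 at -0.50. SPRY2 went from 10.85, 10.88 and 10.87 to 10.10, 10.33 and 10.26 (SE 0.10, limma adjusted p = 6.6e-04), with no overlap. ERBB2 stood at -0.63, while EGFR rose by 0.76 on 1 probe and stood at -0.10 on the other. ERBB2 lies on the chromosome 17 stretch described below, and without the genes of the stretches 2 of 14 members rose and 7 fell. The 8 falling members were 5 without wild-type array 1 or AMOT hairpin array 1, and the 2 rising ones were 1 without AMOT hairpin array 1 and 4 without AMOT hairpin array 3. Of 12 immediate early genes 5 rose and 1, MYC, fell. JUND, a subunit of AP-1, rose by 0.79, KLF6 by 0.63 and the mRNA decay factor ZFP36 by 0.57. MYC went from 12.03, 12.25 and 12.18 to 11.80, 11.70 and 11.72 (-0.41, SE 0.09, adjusted p = 0.0058), with its other probe at -0.29 (adjusted p = 0.065).

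G1 regulators changed around the fall of CCND1. Of 22 measured D and E cyclins, kinases, inhibitors and E2F factors 6 rose and 7 fell. CDK6, a kinase partner of the D cyclins, went from 10.20, 10.16 and 10.07 to 9.46, 9.46 and 9.46 (log2 change -0.68, SE 0.09, limma adjusted p = 3.3e-04), and CCND3 and CDK2 stood at -0.44 and -0.30. CCND2 stood at 0.22 and CDK4 at -0.10, neither called (adjusted p = 0.076 and 0.46). The CDK inhibitors CDKN1B and CDKN1A rose by 0.56 and 0.51, CDKN2B stood at -0.78, and the pocket proteins RBL1 and RBL2 rose by 0.56 and 0.52. E2F2 and E2F3, transcription factors of S phase entry, rose by 0.68 and 0.47. Between the hairpins 0 members of the list were higher and 10 lower in the AMOT hairpin cells, with CDKN1A at -1.90.

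DNA replication genes fell more often than the background and mitosis genes did not. Of 39 replication genes 13 fell and 4 rose, and of 36 mitosis genes 4 fell and 6 rose. RRM2, a subunit of ribonucleotide reductase, had levels of 9.01, 10.12 and 9.99 in wild type, wild-type array 1 being low, and 7.81, 8.10 and 8.0 in the AMOT hairpin cells (log2 change -1.74, SE 0.25, limma adjusted p = 6.2e-04). The licensing factor CDC6 went from 8.33, 8.25 and 8.57 to 6.59, 6.62 and 6.97 (-1.66, SE 0.15), whereas CDT1, which loads the helicase with it, went from 11.29, 11.09 and 11.21 to 11.96, 12.08 and 11.97 (0.81, SE 0.09). These ranges did not overlap, so both licensing factors moved but in opposite directions. The helicase activator CDC45 and the polymerase subunit POLA2 stood at -0.85 and -0.77. MKI67, the proliferation marker, rose by 1.07 from a low level, and the mitotic kinesin KIF20A stood at -0.81. The 4 rising replication genes were 2 without AMOT hairpin array 2 and with median scaling, and the 4 falling mitosis genes were 9 with median scaling.

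Target genes of p53 split against wild type, and where they differed from the YAP hairpin cells they were lower. Of 24 measured targets 6 rose and 5 fell against wild type, close to the background. Against the YAP hairpin 0 were higher, 17 lower and 7 not called. GDF15, a stress cytokine, was undetected in wild type and at least 2.15-fold higher, with levels of 6.999, 6.90 and 7.26 against 8.41, 8.33 and 8.39 in the YAP hairpin cells. SPATA18, a factor of mitochondrial quality control, rose by 0.89. MDM2, the ubiquitin ligase of p53, went from 7.30, 8.09 and 8.15 to 6.49, 6.82 and 6.80 (log2 change -1.15, SE 0.25, limma adjusted p = 0.0061), and the sestrins SESN1 and SESN2 stood at -0.86 and -0.83. In the apoptosis list 4 of 20 members rose and 3 fell. BCL2L11, the death activator BIM, stood at -1.23, and another probe, undetected in the AMOT hairpin cells, was called lower too. BID rose by 0.93. CASP9 stood at -0.80 on 1 probe and at -0.19 on another, which was not called (limma adjusted p = 0.588). The 4 rising apoptosis members were 2 without wild-type array 3 and the 3 falling ones 5 without wild-type array 1.

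Interferon-stimulated genes were called in both directions, with ISG15 among the highest bounds of the switched-on genes. Of 27 measured members 9 rose and 4 fell, and against the YAP hairpin 5 were higher and 5 lower. Promoters of 3 switched-on members were chosen for display because they hold the interferon response motif. In these RefSeq windows (GRCh38.p14, 5′ to 3′ on the gene's strand) matches to the core of the interferon-stimulated response element, 2 copies of GAAA with 2 bases between them or the same of TTTC, are in capitals, and overlapping matches run together. The windows are chr1:1013247-1013546 on the plus strand for ISG15, chr19:17405581-17405880 on the minus strand for BST2 and chr7:93117930-93118229 on the minus strand for SAMD9.
ISG15: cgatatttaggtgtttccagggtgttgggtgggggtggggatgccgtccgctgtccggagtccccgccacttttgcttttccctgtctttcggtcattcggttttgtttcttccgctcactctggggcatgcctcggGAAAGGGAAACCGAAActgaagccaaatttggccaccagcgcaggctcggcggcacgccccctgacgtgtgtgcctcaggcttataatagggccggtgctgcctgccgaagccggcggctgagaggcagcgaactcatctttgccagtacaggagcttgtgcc
BST2: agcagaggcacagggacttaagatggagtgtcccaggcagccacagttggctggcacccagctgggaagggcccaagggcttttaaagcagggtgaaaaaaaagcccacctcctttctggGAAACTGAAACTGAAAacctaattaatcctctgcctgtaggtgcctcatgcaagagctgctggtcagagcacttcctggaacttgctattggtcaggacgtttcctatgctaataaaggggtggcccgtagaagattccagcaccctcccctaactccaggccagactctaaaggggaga
SAMD9: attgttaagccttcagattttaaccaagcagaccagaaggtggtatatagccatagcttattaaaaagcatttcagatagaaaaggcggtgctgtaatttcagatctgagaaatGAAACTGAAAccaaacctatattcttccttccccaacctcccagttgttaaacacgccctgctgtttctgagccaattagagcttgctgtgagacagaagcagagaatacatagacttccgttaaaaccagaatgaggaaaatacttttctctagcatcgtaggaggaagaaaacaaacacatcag

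ISG15 and BST2 held 2 overlapping matches each and SAMD9 held 1, while of 2 further members examined OAS3 held 2 and PARP9 held 0. The motif, searched on both strands, stood in 3.6% of 27305 promoters and in 2.5% of those of tested genes. It stood in 2.3% of promoters of genes called higher and in 3.0% of those called lower. ISG15 was undetected in wild type at 5.40, 5.28 and 5.89 and stood at 8.95, 8.94 and 8.75 in the AMOT hairpin cells. It was at least 7.64-fold higher than in wild type and exceeded the YAP hairpin by 0.59. SAMD9, an antiviral effector, was at least 1.85-fold higher than in wild type and exceeded the YAP hairpin by 1.62. BST2, tetherin, which holds budding viruses at the membrane, was at least 1.68-fold higher and lay below the YAP hairpin by a log2 difference of -1.11. Thus of these 3 genes 2 were higher and 1 lower than in the YAP hairpin cells. IFI27L2 rose by 1.24 and LGALS3BP was at least 1.64-fold higher. With detection p under 0.01 asked on all 6 arrays the 9 rising members were 3 and the 4 falling ones 2, since the switched-on genes then leave the test. Of 11 antigen presentation genes 4 rose and 2 fell, with the loading factors TAPBP and CALR at 0.63 and 0.62. The calls of B2M, HLA-B and HLA-E in that list were near the threshold (adjusted p = 0.042, 0.039 and 0.041). Its rising count was 2 without wild-type array 1 or 3, AMOT hairpin array 1 or 2 or YAP hairpin array 2. Its falling count was 0 without wild-type array 1 or 3 or AMOT hairpin array 2, and 1 without AMOT hairpin array 1 or any 1 of the YAP hairpin arrays.

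Chaperone and stress lists held changes in both directions. Of 29 heat shock genes 7 rose, 9 fell and 13 were not called. The stress-inducible HSPA6 went from 6.58, 6.21 and 6.29 to 8.11, 8.34 and 8.34 (log2 change 1.90, SE 0.17, limma adjusted p = 4.3e-05) and HSPA2 rose by 1.69. HSPE1, the mitochondrial chaperonin 10, went from 12.46, 12.29 and 12.40 to 10.95, 11.28 and 11.81, AMOT hairpin array 3 being the highest (-1.04, SE 0.21, adjusted p = 0.0039). In the unfolded protein response of the ER 3 of 23 genes rose and 11 fell. HSPA5, the ER chaperone BiP, rose by 1.13 on all 3 arrays, from 10.33, 10.50 and 10.51 to 11.55, 11.58 and 11.60, while DNAJC3, PDIA4 and EDEM1, helpers of folding and disposal in the ER, stood at -0.89, -0.89 and -0.74. The falling count of this list was 7 without AMOT hairpin array 2. Targets of ATF4, the factor of the amino acid response, were evenly split at 9 rising and 9 falling of 36, ATF5 rising by 1.68 and NUPR1 by 1.05. The 9 falling ones were 15 with median scaling.

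SLC7A11, the cystine transporter, was at least 1.44-fold lower and undetected on all 3 AMOT hairpin arrays. Of 25 amino acid transporters 4 rose and 8 fell. SLC38A10 went from 9.97, 9.98 and 9.89 to 8.41, 8.35 and 8.21 (log2 change -1.62, SE 0.09, limma adjusted p = 3.5e-06), and SLC7A3, a cationic amino acid transporter, from 9.26, 9.01 and 9.23 to 10.75, 10.68 and 10.47 (1.47, SE 0.11). Both pairs of ranges were apart.

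Among metabolic genes CYP2E1 and CYP4X1 had the largest rises. CYP2E1, the ethanol-oxidising cytochrome P450, went from 5.64, 5.98 and 6.29 to 10.44, 10.61 and 10.23 (fitted log2 change 4.45, SE 0.16, limma adjusted p = 5.1e-07), and CYP4X1, a P450 of brain, from 5.08, 6.35 and 5.42 to 10.20, 10.41 and 10.34 (4.70, SE 0.26), with its other probe at 1.73. Their wild-type levels were detected on 2 and 1 of 3 arrays, so the sizes depend on the background. Both exceeded the YAP hairpin, by 2.52 and 2.06. The rest of the 32 cytochromes and xenobiotic enzymes were split, 10 higher and 9 lower in all, with the fatty acid hydroxylase CYP4V2 at -1.37 and the retinoic acid hydroxylase CYP26A1 at -1.29.

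Of 26 cholesterol synthesis and SREBP target genes 2 rose and 10 fell. SREBF1, the gene of the lipogenic factor SREBP1, went from 10.12, 9.82 and 10.02 to 8.31, 8.30 and 8.32 (log2 change -1.68, SE 0.11, limma adjusted p = 6.5e-06) with no overlap. The citrate lyase ACLY, the mevalonate decarboxylase MVD and the fatty acid synthase FASN stood at -1.03, -0.95 and -0.69. None of the list was higher than in the YAP hairpin cells (0 of 26) and 10 were lower. SREBF1 lies on the chromosome 17 stretch described below, and without the genes of the stretches 8 of 23 fell. The 2 rising members were 1 without AMOT hairpin array 2. In glycolysis 6 of 28 rose and 10 fell, with the liver phosphofructokinase PFKL from 9.45, 8.96 and 9.30 to 7.79, 7.45 and 7.68 (-1.60, SE 0.14). The muscle and neuronal enolases ENO3 and ENO2 rose by 1.39 and 1.37, and the platelet phosphofructokinase PFKP by 0.67, so isozymes of the same step moved in opposite directions.

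The clearest one-sided falls were in machinery that nearly every cell uses. Of 68 subunits of the respiratory chain and ATP synthase 32 fell and 0 rose, with a median log2 change of -0.28. Relative to wild type the median member stood at -0.27, -0.31 and -0.27 on the 3 AMOT hairpin arrays and between -0.07 and 0.06 on the wild-type arrays. UQCRB of complex III went from 10.46, 10.43 and 10.30 to 8.93, 8.98 and 8.82 (-1.49, SE 0.10, limma adjusted p = 7.0e-06), with another probe at -0.33. NDUFB6 of complex I and ATP5MC1 of the ATP synthase stood at -1.001 and -0.96. Of 74 mitochondrial ribosomal proteins 34 fell and 2 rose (median -0.28), MRPL12, MRPL23 and MRPL39 standing at -1.13, -1.05 and -1.03. Another probe of MRPL39 stood at -0.29 and was not called (limma adjusted p = 0.532). Against the YAP hairpin 4 respiratory and 11 mitoribosomal members were higher and 2 and 2 lower, shares at or near the 11.2% and 12.2% of all genes or below them.

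Of 39 proteasome genes 24 fell and 0 rose. The median member stood at -0.34, -0.38 and -0.30 on the AMOT hairpin arrays and at -0.36, -0.39 and -0.42 on the YAP hairpin arrays. Between the hairpins 2 members were higher and 3 lower in the AMOT hairpin cells. PSME3, the PA28 gamma activator, went from 11.34, 11.40 and 11.70 to 10.16, 10.27 and 10.18 (log2 change -1.28, SE 0.12, limma adjusted p = 4.7e-05) and PSMB1, a core subunit, from 14.43, 14.43 and 14.23 to 13.62, 13.59 and 13.61 (-0.76, SE 0.09). PSMB3, PSMD11 and PSMD3 stood at -1.14, -1.08 and -0.89 and lie on the chromosome 17 stretch. Without the genes of the stretches 21 of 36 members fell, so the count did not rest on that stretch. Without wild-type array 2 there was 1 rising member.

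Ribosome biogenesis genes fell as well, 23 of 43 with 0 rising, at a median of -0.31. BOP1, which processes the large subunit rRNA, went from 12.70, 12.60 and 12.65 to 11.32, 11.31 and 11.29 (log2 change -1.34, SE 0.08, limma adjusted p = 4.7e-06), and UTP20 and RRP9 of the small subunit processome stood at -1.25 and -0.80. UBTF, the factor that activates rRNA genes, stood at -0.77. Another probe of UBTF at -0.23 and another of UTP20 at -0.85 were not called (limma adjusted p = 0.464 and 0.109). The groups did not overlap for the probes first given. The falling count was 14 without wild-type array 3 and 15 without AMOT hairpin array 1. Against the YAP hairpin 12 of these genes were higher and 3 lower. Cytosolic ribosomal proteins behaved otherwise, with 10 of 64 rising, 8 falling and a median of 0.07. RPL28 and RPL37 rose by 1.30 and 1.07, and RPL36A and RPL41 stood at -1.62 and -1.40. Their rising count was 5 with median scaling and 16 with cyclic loess. Many ribosomal protein genes have processed copies, which such probes may also read.

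Splicing factors leaned downward, 18 of 60 lower and 6 higher. SRSF5 and SRSF6, serine-rich splicing factors, rose by 1.18 and 0.60, and HNRNPL stood at -0.70. HNRNPA2B1 stood at -0.73 on its brightest probe and at 0.67, 0.62 and 0.65 on 3 others, so its direction was not settled. The falling count was 10 without AMOT hairpin array 2 and 29 with median scaling, and the rising count was 3 under either setting.

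Histone genes rose, 15 of 25 higher and 4 lower, at a median log2 change of 0.58, or 0.52 with switched-on members set at their lower bound. H2BC5 went from 7.57, 7.88 and 7.79 to 9.92, 9.93 and 10.06 (2.22, SE 0.10, limma adjusted p = 1.4e-06), and H2AC18 from 8.97, 8.83 and 8.62 to 10.12, 9.98 and 9.98 (1.22, SE 0.11). H4C8 and H2AC6, undetected in wild type, were at least 2.33- and 1.43-fold higher. Against the YAP hairpin 15 were higher and 0 lower. The falling members were H4C3 at -0.87, H2AC13 at -0.60, H2AZ2 at -0.59 and H3-3A at -0.35, of which H2AZ2 and H3-3A encode variants made outside S phase. H2AC18 and H2AC19 are near-identical copies and may share reads of their probes. With detection p under 0.01 asked on all 6 arrays the rising histones were 9. Transcripts of clustered histone genes mostly lack a poly(A) tail, and how the labelling of these RNAs acted on their values was not tested.

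Lysosomal genes rose more often than they fell, 12 of 40 against 3. Aside from GALC, the falling members were NAGLU at -1.36 and GLA at -0.33, and the rising ones were led by the glycosidases GAA at 1.01 and MANBA at 0.92, the protease CTSH at 0.78, the sphingolipid activator precursor PSAP at 0.73 and the cholesterol carrier NPC2 at 0.60. MANBA went from 8.88, 9.09 and 9.15 to 9.96, 9.93 and 10.01 (SE 0.10, limma adjusted p = 1.2e-04). The falling count was 5 to 7 with median scaling, no background correction, an offset of 50, the series matrix or detection p under 0.01 on all 6 arrays. Of 29 autophagy genes 5 rose and 8 fell, OPTN, an autophagy receptor on chromosome 10, from 7.99, 8.62 and 8.11 to 9.75, 10.05 and 9.97 (1.68, SE 0.17) and SQSTM1, the receptor p62, by 0.66. ATG4B and ATG9A stood at -0.93 and -0.62. The rising autophagy count was 3 without wild-type array 3 or AMOT hairpin array 1 or 2. The falling one was 4 or 5 without wild-type array 1 or 3 or AMOT hairpin array 1 or 2.

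Ciliary and centrosomal genes were called equally in both directions, 11 of 43 each. CFAP70, of motile cilia, stood at 3.00 from a wild-type mean near the limit of detection, and the ciliary GTPase ARL3 and transition zone protein CC2D2A rose by 1.59 and 1.45. CC2D2A went from 8.30, 8.26 and 8.24 to 9.66, 9.64 and 9.86 (SE 0.09, limma adjusted p = 5.9e-06) and the transition zone partner B9D1 fell, so the members of that zone did not move alike. DNAH14 stood at -0.77 on its brightest probe, while 3 other probes, undetected in wild type, were called higher. The falling count was 6 without wild-type array 3 and 7 without AMOT hairpin array 2.

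Members of the neuronal cytoskeleton and synapse lists rose more often than all tested genes, and those of the axon guidance list did not. Of 27 cytoskeletal and axonal genes 14 rose and 4 fell (median log2 change 0.47), and of 22 synaptic and secretory granule genes 14 rose and 2 fell (median 0.51, or 0.48 with switched-on members at their bound). DPYSL3, a collapsin response mediator of growing axons, went from 6.30, 6.38 and 5.76 to 8.06, 8.33 and 7.91 (1.95, SE 0.19, limma adjusted p = 5.7e-05) and exceeded the YAP hairpin by 2.20. Its relative CRMP1 went from 8.66, 8.35 and 8.18 to 10.10, 9.98 and 10.14 (1.68, SE 0.13) and lay below the YAP hairpin by a log2 difference of -1.80. The membrane glycoprotein GPM6A rose by 1.66 and MAPT, the microtubule protein tau, by 1.38. NEFM, the medium neurofilament, went the other way, at -0.94. These related proteins therefore differed between the hairpins in opposite directions.

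Granule proteins rose by less than in the YAP hairpin cells. CHGA, chromogranin A, went from 8.02, 7.78 and 7.87 to 9.06, 9.13 and 8.93 (log2 change 1.15, SE 0.12, limma adjusted p = 9.3e-05), where the YAP hairpin levels were 10.97, 10.64 and 10.97. CHGB, chromogranin B, was at 6.74, 6.63 and 6.86 after being undetected in wild type, and at 11.01, 11.05 and 10.998 in the YAP hairpin cells, a log2 difference of -4.28. The vesicle proteins SYP and SYN1 rose by 1.15 and 0.93 and lay below the YAP hairpin by -1.22 and -2.24. In the synaptic list 2 members were higher and 12 lower than in the YAP hairpin cells. With detection p under 0.01 asked on all 6 arrays the 14 rising synaptic members were 9. The neuropeptide GAL stood at -0.54 against wild type and above the YAP hairpin by 1.62. Of 30 axon guidance genes 5 rose and 3 fell, UNC5A, a netrin receptor, being at least 3.26-fold higher, and the 5 were 3 without wild-type array 3. In the BEX and TCEAL family 3 of 11 rose, TCEAL7 by 1.34 against a YAP hairpin difference of -2.57, TCEAL1 by 0.70 and BEX2 by 0.51. It had 1 falling member without wild-type array 2 or YAP hairpin array 2.

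Genes of other lineages gave small counts. Of 10 kidney lineage genes 2 rose, EYA1 by 0.64 (0.27 on another probe, not called) and PODXL by 0.44, and 1, WT1, fell by 0.49 on the log2 scale, a call lost without wild-type array 2 or 3 or AMOT hairpin array 1 (adjusted p = 0.054 to 0.062 by limma). Of 11 cancer-testis antigens 3 rose and 5 fell. MAGEA6 stood at -2.25 and MAGEA12, undetected on the AMOT hairpin arrays, was at least 1.53-fold lower. MAGEB2 went from 7.93, 7.89 and 7.76 to 9.40, 9.38 and 9.51 (log2 change 1.56, SE 0.11, adjusted p = 1.1e-05). The MAGEA genes are close copies, so their probes may share targets. Both measured hepatocyte markers rose, ALB by 0.71 and APOA1 by 0.90, and of the other marker lists CD14 rose by 0.61 and LUM by 0.73. The LUM call was lost without wild-type array 1 or 3 or AMOT hairpin array 1 or 3. Summed over the 2 hepatocyte markers the log2 level was 7.40 to 7.91 in wild type and 8.29 to 8.67 in the AMOT hairpin cells. The 2 blood cell markers summed to 7.39 to 7.84 and 7.44 to 7.80, and the 2 fibroblast markers to 6.80 to 7.47 and 7.19 to 7.48.

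Chromatin modifiers were called less often than all genes, 6 of 34 higher and 4 lower. HDAC2, a deacetylase of chromosome 6, went from 14.32, 14.29 and 14.42 to 13.73, 13.85 and 14.03 (log2 change -0.47, SE 0.10, limma adjusted p = 0.0058), and the methyltransferase KMT2A rose by 0.65.

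Differences were not spread evenly over the chromosomes. Of 460 tested genes of chromosome 10, 174 (37.8%) were called higher and 39 (8.5%) lower, with a median log2 change of 0.24. On chromosome 17, 104 of 670 (15.5%) were higher and 214 (31.9%) lower, with a median of -0.14. The median gene of chromosome 10 stood at 0.23, 0.25 and 0.25 on the 3 AMOT hairpin arrays, at 0.10, 0.09 and 0.06 on the YAP hairpin arrays and at 0.01, 0.00 and 0.00 on the wild-type arrays. On chromosome 17 it stood at -0.14, -0.16 and -0.15 on the AMOT hairpin arrays, while the YAP hairpin arrays lay at 0.04, 0.05 and 0.00. Chromosomes 13 and 6 also leaned lower, with 28.8% and 26.3% of their genes, and chromosome 22 leaned higher with 30.7%.

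**Figure D5:**
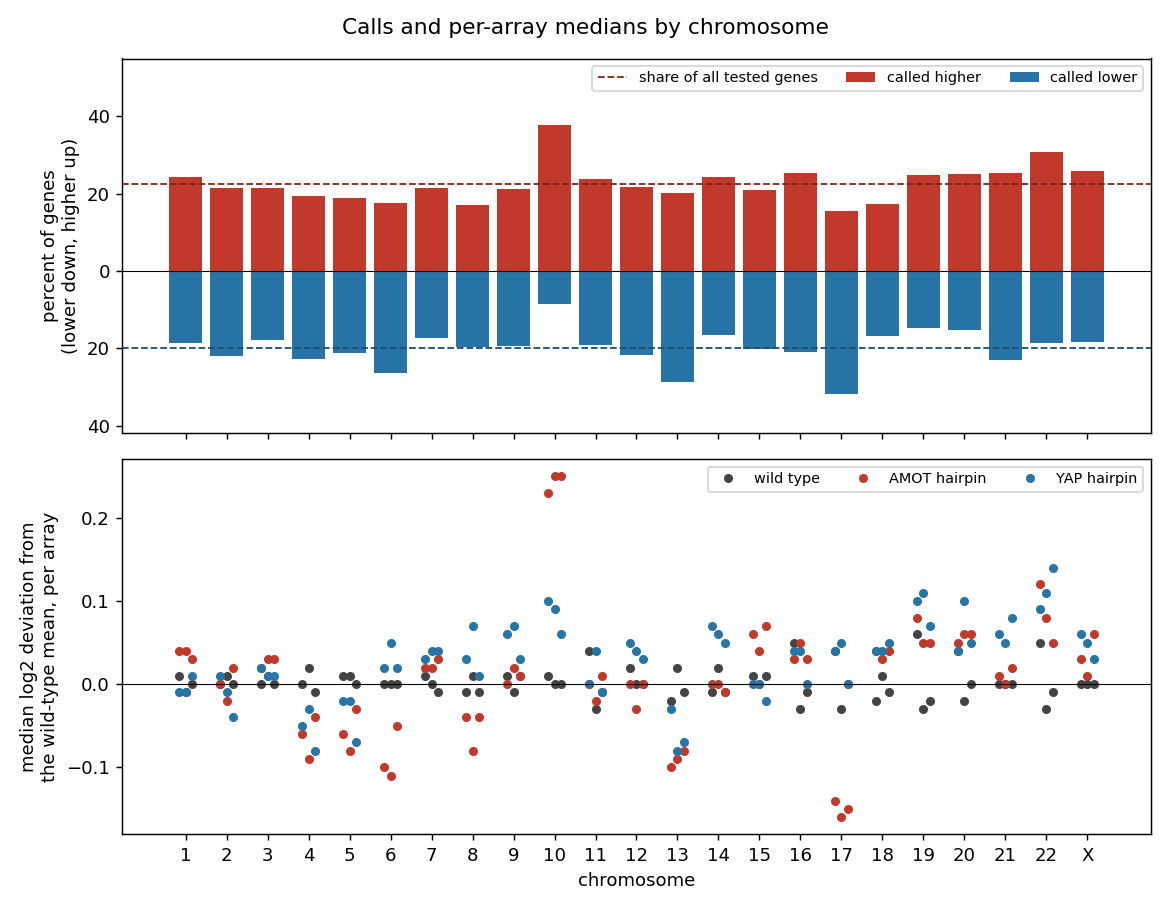
Top, percent of the tested genes of each chromosome called higher (red, up) and lower (blue, down) in the AMOT hairpin cells, with the shares of all tested genes as dashed lines; bottom, the median log2 deviation of each chromosome's genes from the wild-type mean on each of the 9 arrays. Chromosome 10 stands above and chromosome 17 below the others on all 3 AMOT hairpin arrays.

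On chromosomes 10, 17 and 6 long stretches were shifted. Windows of 10 Mb with 10 or more genes were joined where 2 or more neighbours had a median log2 change of at least 0.25 in size in the same direction, a rule made after the values were seen. Of 286 windows 9 were at or above 0.25 and 14 at or below -0.25, and 4 stretches resulted. On chromosome 10 all 14 windows had a median above 0, from 0.04 to 0.46, so its shift was not limited to the stretches. Chromosomes 13 and 22 held no stretch by this rule. Yet the chromosome 13 windows at 70 to 80 and 90 to 100 Mb stood at -0.40 and -0.42. They were not joined, since no window with 10 or more genes lay between them. The chromosome 6 window at 110 to 120 Mb, at -0.43, also lay outside the stretches. On chromosome 10 the genes from ZMYND11 to AGAP6 (130088 to 50010499, GRCh38.p14) numbered 137, with 63 higher, 5 lower and a median of 0.41. Their median stood at 0.37, 0.37 and 0.38 on the AMOT hairpin arrays and at 0.15, 0.18 and 0.17 on the YAP hairpin arrays. Members include the myosin MYO3A at 1.66 and the scaffold FRMD4A at 1.61, beside OPTN and PRTFDC1. The genes from MXI1 to EBF3 (110207605 to 129964274) numbered 72, with 31 higher, 3 lower and a median of 0.27, among them the protease HTRA1 at 1.56, the receptor GFRA1 at 1.32 and MKI67. With median scaling the median of the MXI1 to EBF3 stretch was 0.17, and with no background correction that of the ZMYND11 to AGAP6 stretch was 0.26.

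On chromosome 17 the genes from MYH3 to PSMD3 (10628532 to 39997959) numbered 177, of which 91 were lower and 8 higher, with a median of -0.37. Their median stood at -0.32, -0.46 and -0.40 on the AMOT hairpin arrays and between -0.08 and -0.02 on the YAP hairpin arrays, and 87 of the 177 genes were called lower than in the YAP hairpin cells. DNA ligase LIG3, SREBF1, the kinase CDK12 and the serine hydroxymethyltransferase SHMT1 stood at -1.68, -1.68, -1.44 and -1.31. The falling genes ATPAF2, B9D1 and PRPSAP2, named above among the largest falls, also lie in this stretch. SARM1, an executor of axon degeneration, was among the few higher genes at 2.15. On chromosome 6 the genes from L3MBTL3 to IGF2R (130018581 to 160111504) numbered 100, with 48 lower, 9 higher and a median of -0.34. Those genes stood at -0.40, -0.38 and -0.33 on the AMOT hairpin arrays and between -0.04 and -0.01 on the YAP hairpin arrays. The isomerase relative PPIL4, the peroxisomal receptor PEX7 and the thiolase ACAT2 stood at -1.84, -1.16 and -1.11, while CCN2, which lies in the same stretch, rose. Outside the 4 stretches 22.6% of 10778 genes were higher and 19.5% lower. Whether the number of copies of these stretches differed between the lines was not measured here, and its part in the result was not tested.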

How the data were processed

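Total RNA was labelled with biotin and hybridised to Illumina bead arrays, per the labels' protocols. The authors deposited, per the file headers, a linear intensity and a detection p-value for each probe on each array, neither background-corrected nor normalized. Their series matrix holds normalized intensity values, deposited by an unstated method, and was used as an alternative. Signals were corrected and quantile-normalized over all 9 arrays with limma 3.58.1 in R 4.3.3 (neqc, offset 16, detection p as control) and put on the log2 scale, which makes changes relative to all transcripts. Adding the offset shrinks changes of dim probes. A linear model with 1 mean per group was fitted with lmFit and eBayes (6 residual and 3.6 prior degrees of freedom). Tests were two-sided with Benjamini-Hochberg adjustment over the 20851 probes and a threshold of 0.05. The fit was tested on simulated data. P-values measure the spread between these arrays, and their number limits the precision.

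Symbols came from GEO's platform annotation and positions from RefSeq (GRCh38.p14), found for 11272 genes. Named are the angiomotins and YAP genes of special role, the 15 largest rises and falls among genes detected on all 6 arrays, the 10 largest bounds in each direction, the 10 largest changes in each direction at wild-type level 11 or more, and up to 5 called members of each list; a few others serve as examples, chosen after their values were seen, among them uncalled members, TOM1L2 and genes of the stretches. The comparison, its lists and tests were chosen with earlier results of these data known. Alternatives changed the background correction, offset, scaling, filter, arrays fitted, replicate block and probe rule, and left out each array. The results of 1 gene list are not reported here.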

Additional observations from a re-analysis of the deposited data

How the results depend on the processing

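None of the 278 named genes changed sign under any alternative run, and neither did the median of any of the 4 stretches. AMOT stayed between -4.33 and -4.05 on the log2 scale, and between -4.29 and -4.16 when 1 array was left out. Leaving out 1 array gave 3240 to 3793 higher and 3167 to 3853 lower probes, and 920 to 1001 and 459 to 547 past 2-fold. With only the 6 compared arrays normalized and fitted, 3529 probes were higher and 3547 lower. The counts past 2-fold depended on how dim signals are treated. They were 279 higher and 132 lower with no background correction, 625 and 282 with an offset of 50, and 278 and 131 with the series matrix. With detection p under 0.01 on all 6 arrays, which drops genes undetected in 1 group, 491 were higher. The cause of the other differences was not tested. The split of calls was 3749 higher to 4228 lower with median scaling, but turned to 4167 to 3698 with cyclic loess and 3519 to 3313 without a filter, from 3935 to 3986. Mitosis, with 6 higher and 4 lower members, had 4 and 9 with median scaling.

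Replicate numbers paired the arrays weakly if at all. Deviations of same-numbered arrays correlated at 0.023, 0.112 and 0.019, and 4 of 6 arrays correlated best with their own number. With the replicate block 3675 probes were higher and 3724 lower, and 940 and 478 past 2-fold.

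Of 278 named genes 22 lost their call under some alternative, 21 of them when an array was left out. Of 19 list counts of 10 or more, 8 moved by over 1.5 times somewhere. Beyond those given with the lists, ribosome biogenesis fell to 15 lower members, cilium to 6 and ribosomal proteins to 6 higher when every probe of a gene had to be called. Without a filter splicing had 11 lower members and cilium 7, and splicing 11 with only the 6 arrays fitted. Counts without the stretches, medians of the stretches and the switched-on counts under other settings were added after seeing the data. Dim genes near a level of 6 are limited by signal over background.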
